A study of Homo sapiens with 12 samples.

Results

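The 38 genes described here carry out glycolysis or belong to the response of cells to low oxygen. They were taken by name from a fixed list, and every probe that the array files assign to one of these names was collected on all 12 arrays, with PKM2 also accepted as PKM and ERO1L as ERO1A. All 38 genes had a probe, 53 probes in all, and all 38 passed the filter on dim probes, out of 24857 genes that passed it and 36332 gene names on the arrays. The list holds 3 transporters of glucose and lactate, 9 genes of the preparatory steps of glycolysis and 6 of its energy-yielding steps. It also holds 4 genes of lactate dehydrogenase and the pyruvate dehydrogenase kinases, 2 regulators of phosphofructokinase, 2 alpha subunits of the hypoxia-inducible factors, 5 genes of oxygen sensing and collagen hydroxylation, and 7 other genes of the hypoxia response.

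Glycolysis splits glucose into pyruvate, which is either oxidized in mitochondria or reduced to lactate and exported. The hypoxia-inducible factors (HIF) are transcription factors whose alpha subunits are hydroxylated by the EGLN enzymes and degraded when oxygen is plentiful, and which otherwise enter the nucleus and switch on genes of glycolysis, vessel growth and matrix. Many tumor cells keep high glycolysis in the presence of oxygen, and lung adenocarcinoma is known for high SLC2A1 and LDHA in many cases.

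The cell lines measured were the human lung adenocarcinoma lines A549, PC14, and PC14CDDP, a cisplatin-resistant line derived from PC14. Each line was transfected at 25 nM with pre-miR-197, which supplies the microRNA miR-197, or with the negative control NC, labeled AllStar-NC. It was also transfected at 25 nM with LNA-miR-197, a locked nucleic acid oligonucleotide that blocks miR-197, or with its control LNA-NC. The difference between pre-miR-197 and NC thus includes any difference in the type of oligonucleotide, and so does that between LNA-NC and NC. All cultures received the same transfection reagent and the same serum-containing medium, and no label names a low-oxygen culture. Each of the 12 transfections was hybridized once to a single-color array, so the 4 arrays of a line are differently transfected cultures of 1 line. The 3 lines are the replicates of a transfection, but PC14 and PC14CDDP share an origin and are not independent lines.

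Each level is a processed probe signal divided by the 75th percentile of its array, on the log2 scale, so that 0 stands for that percentile. Levels are compared between arrays for 1 gene. Only the sums over cell type markers combine levels of different genes, and each sum depends mainly on its brightest probes. A gene was called when the adjusted p of limma was under 0.05 after Benjamini-Hochberg adjustment over the 24857 genes. The labels do not say that cultures were grown independently, so the p-values measure the spread between these arrays. Signal came from whole cultures, in which fewer cells expressing a gene and less RNA per cell cannot be told apart. Slide 1 held the A549 arrays and slide 2 held both other lines, so A549 and its slide cannot be told apart. A given transfection always had the same column of the slide, so column and transfection cannot be told apart. On slide 2, PC14 lay in row 1 and PC14CDDP in row 2, so row and line cannot be told apart there.

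HIF binds DNA at the short core ACGTG or GCGTG. The 250 bases before each RefSeq start of the listed genes (GRCh38.p14) were therefore searched for these letters on both strands. A match on the other strand appears as the reverse complement, and CACGTG counts as 2 overlapping matches. Of the 38 genes, 34 had a window that was counted. No entry was used for SLC2A3 and VEGFA, and BNIP3L and NDRG1 were left out of the counts. The shares below therefore describe these 34 genes, and the whole RefSeq table was not restricted in the same way. A match lay before at least 1 start in 28 of 34 genes (82.35%), against 12945 of 27305 genes (47.41%) in the whole RefSeq table. Genes with more starts have more windows, and counted by window the shares were 37 of 62 (59.68%) and 15172 of 35116 (43.21%). Among genes called lower in PC14CDDP than PC14, 18 of 22 held a match (81.82%), and among the other genes 10 of 12 (83.33%). The genes called lower without a match were EGLN3, SLC2A1, PGAM1 and P4HA2, and the others without a match were LDHB and PKM2. Only genes with a match are printed below. A match of letters is a description and not a binding site. The stretches that span all matches before 1 start are shown for 7 genes that were lower in PC14CDDP (LDHA, PGK1, ALDOC, ENO2, PFKFB4, P4HA1 and ADM) and for 2 genes that were not called there (HK2 and GAPDH), with each match in capitals. LDHA lies at chr11:18394363-18394509, PGK1 at chrX:78104022-78104084, ENO2 at chr12:6914447-6914481, ADM at chr11:10304957-10304991, HK2 at chr2:74833883-74834098 and GAPDH at chr12:6535168-6535203, all on the plus strand. ALDOC lies at chr17:28576904-28577145, PFKFB4 at chr3:48556950-48556984 and P4HA1 at chr10:73096933-73096967, all on the minus strand. Each is upstream promoter sequence printed 5′ to 3′ on the strand of its gene.
LDHA: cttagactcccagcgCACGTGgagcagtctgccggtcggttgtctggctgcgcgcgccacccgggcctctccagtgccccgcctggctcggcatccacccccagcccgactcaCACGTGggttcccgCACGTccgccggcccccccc
PGK1: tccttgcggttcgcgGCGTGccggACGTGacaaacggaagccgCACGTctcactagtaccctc
ALDOC: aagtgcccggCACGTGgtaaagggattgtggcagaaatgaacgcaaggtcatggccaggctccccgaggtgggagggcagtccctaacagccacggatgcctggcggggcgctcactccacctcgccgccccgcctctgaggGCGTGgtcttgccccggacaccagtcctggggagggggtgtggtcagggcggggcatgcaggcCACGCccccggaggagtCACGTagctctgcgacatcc
ENO2: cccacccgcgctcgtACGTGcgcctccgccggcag
PFKFB4: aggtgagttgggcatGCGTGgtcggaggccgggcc
P4HA1: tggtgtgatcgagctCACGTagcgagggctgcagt
ADM: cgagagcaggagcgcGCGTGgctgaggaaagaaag
HK2: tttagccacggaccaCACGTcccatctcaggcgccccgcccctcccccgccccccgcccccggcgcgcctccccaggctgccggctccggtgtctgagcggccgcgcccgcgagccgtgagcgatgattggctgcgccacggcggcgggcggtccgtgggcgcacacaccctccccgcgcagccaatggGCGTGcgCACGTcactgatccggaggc
GAPDH: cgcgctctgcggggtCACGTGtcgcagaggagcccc
LDHA and ALDOC each held 5 matches in these stretches, PGK1 and HK2 held 3, GAPDH held 2, and the other 4 genes held 1. The stretches of HK2 and GAPDH, which did not differ detectably between PC14 and PC14CDDP, also held matches.

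The comparison of PC14CDDP with PC14 asks how the resistant line differs from the line it came from, within slide 2. PC14CDDP had lower levels of 25 of the 38 genes, higher levels of 2 (PFKM and LDHB), and 11 were not called. Over all genes tested, 22.8% were called lower and 25.7% higher. The median difference of the 38 genes was -0.71 on the log2 scale, while that of all genes was 0.05. The genes lower in PC14CDDP included both HIF alpha subunits, the glucose transporters SLC2A1 and SLC2A3, the oxygen sensor EGLN3, and the secreted factors VEGFA, ADM and ANGPTL4. The central enzymes GAPDH, ENO1 and PKM2 and the hexokinase HK2 were not called.

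A549 was compared with the other lines in the same fit, and the comparisons share arrays, so they are not independent of each other. Against PC14, A549 had 21 genes lower and 10 higher, and 7 were not called, with 32.1% of all genes called lower and 36.1% higher. The median of the 38 genes was -0.37, and that of all genes was 0.09. Against PC14CDDP, A549 had 21 genes higher and 10 lower, with 36.2% of all genes called higher and 34.0% lower. The median was 0.36, beside 0.05 for all genes. These splits moved with the scaling. With each array centered on its median, A549 had 6 genes higher and 24 lower against PC14, and 16 higher and 13 lower against PC14CDDP. Against PC14, HK2 had the largest negative and ADM the largest positive difference of the 38 genes.

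**Figure D1:**
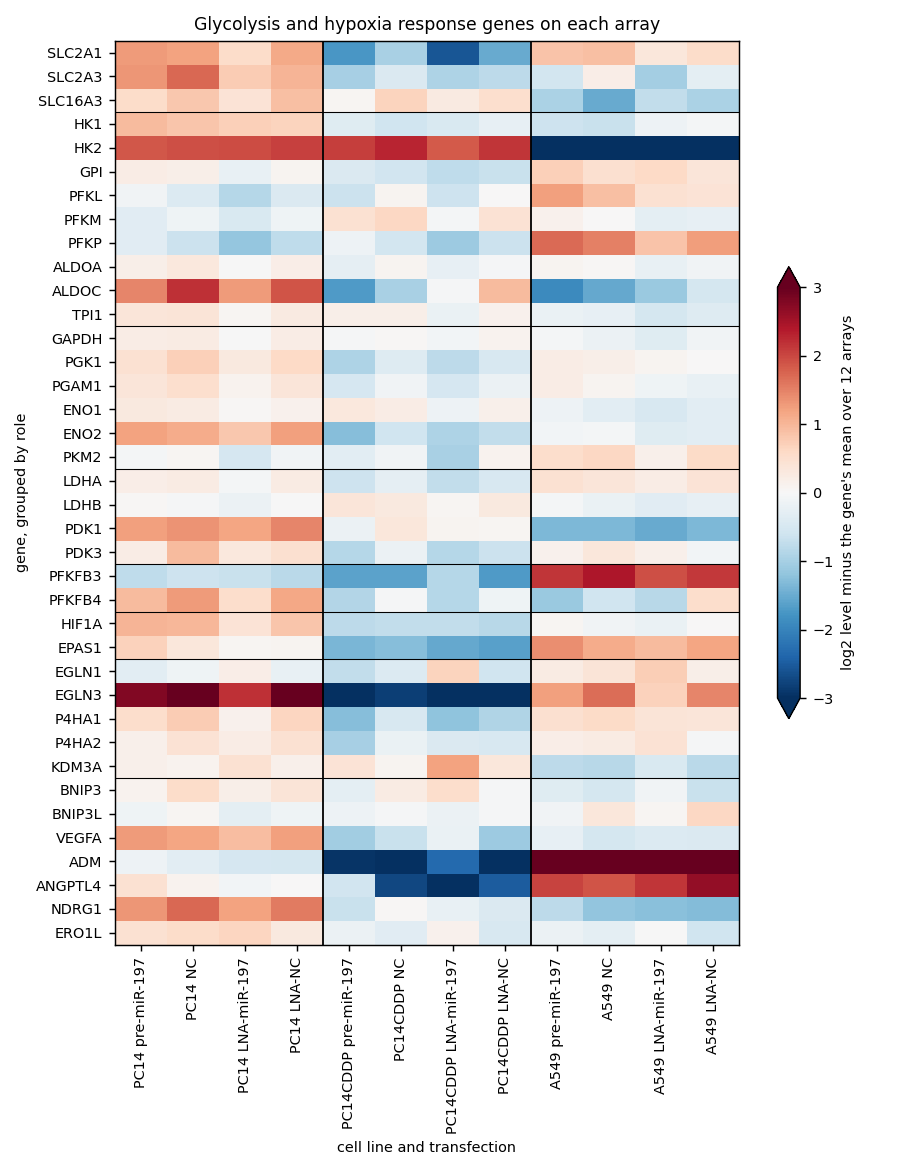
Heat map of the 38 genes (rows, grouped by role) on the 12 arrays (columns, by cell line and transfection), where color gives the log2 level minus the mean of the gene over the 12 arrays and is cut at 3 in either direction. EGLN3 is dark blue on the PC14CDDP arrays, HK2 on the A549 arrays, and ADM is dark red on the A549 arrays.

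Both glucose transporters on the list were lower in PC14CDDP than in PC14. In the order pre-miR-197, NC, LNA-miR-197 and LNA-NC, which holds for all values by array below, SLC2A1 (GLUT1, the main glucose transporter of many tumor cells) measured 4.50, 4.44, 3.79 and 4.37 in PC14, 1.48, 2.25, 0.68 and 1.73 in PC14CDDP, and 4.08, 4.13, 3.57 and 3.78 in A549. PC14CDDP lay below both other lines with no overlap, whereas PC14 and A549 overlapped. The difference between PC14CDDP and PC14 was -2.75 (SE 0.17, adjusted p = 8.87e-06), a 6.71-fold lower level, and A549 lay 5.13-fold above PC14CDDP with a difference of 2.36 (SE 0.17, adjusted p = 5.52e-06). This rests on the brighter of the 2 SLC2A1 probes, at chr1:43391874-43391933 (hg19). The other, at chr1:43396070-43396129, differed by 0.24 between PC14CDDP and PC14 and was lower in 2 of 4 pairs, and the mean of both probes gave -1.25 (adjusted p = 0.000329). Between A549 and PC14CDDP the other probe differed by -0.45 and was higher in 1 of 4 pairs, and the mean of both gave 0.96 (adjusted p = 0.000751).

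SLC2A3 (GLUT3, a high-affinity glucose transporter) measured 0.66, 1.07, 0.10 and 0.36 in PC14, -1.65, -1.08, -1.58 and -1.45 in PC14CDDP, and -1.20, -0.46, -1.67 and -0.95 in A549. All PC14 arrays were above all others, and PC14CDDP and A549 overlapped. PC14CDDP differed from PC14 by -1.99 (SE 0.14, adjusted p = 1.45e-05) and A549 from PC14 by -1.62 (SE 0.14, adjusted p = 1.62e-05). SLC2A3 and SLC2A14 are near-identical in sequence, so the signal may be shared. SLC16A3 (MCT4), which exports lactate, measured 7.12, 7.39, 6.98 and 7.47 in PC14, 6.64, 7.25, 6.86 and 7.08 in PC14CDDP, and 5.62, 5.06, 5.85 and 5.62 in A549. It was lower in A549 than in either other line, with differences of -1.70 against PC14 (adjusted p = 0.000111) and -1.42 against PC14CDDP (adjusted p = 0.000298), and the difference between PC14CDDP and PC14 was -0.29 (SE 0.20, adjusted p = 0.285).

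The preparatory steps of glycolysis, which phosphorylate glucose and split it into triose phosphates, differed gene by gene. In PC14CDDP, 5 of the 9 genes were lower than in PC14 and 1 was higher, and in A549, 4 were lower than in PC14 and 3 were higher. Of all genes tested, 22.8% were called lower and 25.7% higher in PC14CDDP, and 32.1% and 36.1% in A549. These shares also stand beside the counts by role in the paragraphs that follow. HK2, the hexokinase that many tumors induce, measured 3.91, 3.97, 3.996 and 4.09 in PC14, 4.11, 4.33, 3.87 and 4.19 in PC14CDDP, and -1.42, -3.06, -2.14 and -1.37 in A549. The A549 arrays were far below all others, and PC14 and PC14CDDP overlapped. A549 was 63.5-fold lower than PC14 with a difference of -5.99 (SE 0.30, adjusted p = 7.92e-07), and 69.6-fold lower than PC14CDDP with a difference of -6.12 (SE 0.30, adjusted p = 5.85e-07). The difference between PC14CDDP and PC14 was 0.13 (SE 0.30, adjusted p = 0.751). With normexp background correction the HK2 difference between A549 and PC14 was -5.25. A second HK2 probe was at background on all A549 arrays and gives no exact difference there.

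HK1, the hexokinase found in most tissues, was lower than in PC14 in both other lines, with differences of -1.21 in PC14CDDP (adjusted p = 0.000279) and -1.17 in A549 (adjusted p = 0.000168). ALDOC, an aldolase best known from brain, measured 0.42, 1.14, 0.22 and 0.83 in PC14, -2.75, -2.03, -1.09 and -0.11 in PC14CDDP, and -2.96, -2.58, -2.17 and -1.58 in A549. All PC14 arrays were above all others, while the PC14CDDP arrays spread from -2.75 to -0.11 and overlapped with A549. The difference between PC14CDDP and PC14 was -2.15 (SE 0.37, adjusted p = 0.00176), and the difference within a transfection ran from -3.18 after pre-miR-197 to -0.93 after LNA-NC. A549 differed from PC14 by -2.97 (SE 0.37, adjusted p = 0.000155). With normexp background correction the last difference was -2.29.

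The 3 phosphofructokinase genes, whose products commit sugar phosphate to glycolysis, differed in pattern. PFKP, the platelet type, measured 5.30, 4.98, 4.46 and 4.87 in PC14, 5.49, 5.08, 4.54 and 4.99 in PC14CDDP, and 7.34, 7.13, 6.48 and 6.88 in A549. A549 was above both other lines without overlap, by 2.05 (SE 0.07, adjusted p = 8.93e-08) against PC14 and 1.93 (SE 0.07, adjusted p = 1.08e-07) against PC14CDDP, and PC14CDDP differed from PC14 by 0.12 (adjusted p = 0.189). PFKL, the liver type, was also higher in A549, by 1.20 against PC14 (adjusted p = 0.00112). PFKM, the muscle type, was 1.54-fold higher in PC14CDDP than in PC14 with a difference of 0.62 (SE 0.11, adjusted p = 0.00211), with no overlap between these lines. GPI, which converts glucose phosphate to fructose phosphate, was highest in A549 and lowest in PC14CDDP, with differences of -0.68 for PC14CDDP against PC14 (adjusted p = 0.000607) and 0.47 for A549 against PC14 (adjusted p = 0.0026). With arrays centered on their medians the difference of GPI between A549 and PC14 was 0.21 and no longer called. ALDOA and TPI1 were lower in PC14CDDP than PC14, with differences of -0.30 and -0.21, with overlapping arrays and adjusted p = 0.0241 and 0.0374. Both calls were lost when any 1 of the 4 transfections was left out, with adjusted p of 0.0594 or more for ALDOA and 0.0889 or more for TPI1.

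In the energy-yielding steps, which make ATP and pyruvate, 3 of 6 genes were lower in PC14CDDP than PC14 and none was called higher. ENO2, the enolase of neurons, measured 2.87, 2.78, 2.47 and 2.88 in PC14, 0.38, 1.07, 0.73 and 0.92 in PC14CDDP, and 1.57, 1.59, 1.29 and 1.33 in A549. The 3 lines did not overlap, with PC14 highest and PC14CDDP lowest. PC14CDDP differed from PC14 by -1.98 (SE 0.15, adjusted p = 1.96e-05) and A549 from PC14 by -1.31 (SE 0.15, adjusted p = 7.57e-05). PGK1, the first ATP-making enzyme of the pathway, was 2.24-fold lower in PC14CDDP than PC14 (-1.16, adjusted p = 8.69e-05), and the mutase PGAM1 was 1.59-fold lower (-0.66, adjusted p = 0.00218). Differences between PC14CDDP and PC14 were -0.16 for GAPDH (adjusted p = 0.109), -0.04 for ENO1 (adjusted p = 0.665) and -0.17 for PKM2 (adjusted p = 0.272). GAPDH has many near-identical pseudogenes, which its probe may also read. In A549, 5 of the 6 genes were lower than in PC14, with differences of -0.34 to -1.31, and PKM2 was higher by 0.62 (adjusted p = 0.00183).

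LDHA, the lactate dehydrogenase subunit that favors lactate formation, measured 7.55, 7.59, 7.29 and 7.58 in PC14, 6.72, 7.08, 6.61 and 6.86 in PC14CDDP, and 7.80, 7.71, 7.58 and 7.76 in A549. All PC14CDDP arrays were below all arrays of the other lines, and PC14 and A549 overlapped. The difference between PC14CDDP and PC14 was -0.69 (SE 0.09, adjusted p = 0.000331), a 1.61-fold lower level. A549 differed from PC14CDDP by 0.90 (SE 0.09, adjusted p = 2.98e-05) and from PC14 by 0.21 (adjusted p = 0.0625). LDHB, the other subunit, went the opposite way in PC14CDDP and was 1.23-fold higher than in PC14, with a difference of 0.30 (SE 0.07, adjusted p = 0.0064) and no overlap. Without the NC arrays its adjusted p was 0.0616, and after quantile normalization 0.0746.

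PDK1 and PDK3, kinases that shut pyruvate out of mitochondrial oxidation, were both lower in PC14CDDP. PDK1 measured 2.07, 2.18, 2.01 and 2.31 in PC14, 0.67, 1.17, 0.91 and 0.90 in PC14CDDP, and -0.51, -0.50, -0.67 and -0.50 in A549. The 3 lines did not overlap, with PC14 highest and A549 lowest. PDK1 differed by -1.23 (SE 0.10, adjusted p = 3.53e-05) between PC14CDDP and PC14, by -2.69 (SE 0.10, adjusted p = 1.62e-07) between A549 and PC14, and by -1.46 (SE 0.10, adjusted p = 3.97e-06) between A549 and PC14CDDP. PDK3 was 2.18-fold lower in PC14CDDP than PC14 (-1.13, adjusted p = 9.79e-05).

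PFKFB3 and PFKFB4 set the level of the sugar phosphate that activates phosphofructokinase. PFKFB3 measured 1.77, 1.92, 1.88 and 1.74 in PC14, 0.93, 0.93, 1.68 and 0.85 in PC14CDDP, and 4.68, 4.96, 4.47 and 4.66 in A549. A549 was far above the other lines, by 2.87 (SE 0.18, adjusted p = 2.94e-06) against PC14 and 3.60 (SE 0.18, adjusted p = 6.96e-07) against PC14CDDP, which is 7.3-fold and 12.1-fold. PC14CDDP was below PC14 without overlap, with a difference of -0.73 (SE 0.18, adjusted p = 0.0112), but its LNA-miR-197 array lay just below PC14 and the call was lost without pre-miR-197, NC or LNA-NC (adjusted p from 0.0582 to 0.0653). PFKFB4 was lower than in PC14 in both other lines, with differences of -1.46 in PC14CDDP (adjusted p = 0.000883) and -1.49 in A549 (adjusted p = 0.00044).

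Both HIF alpha subunits were lower in PC14CDDP than in PC14. HIF1A measured 4.31, 4.27, 3.69 and 4.12 in PC14, 2.49, 2.55, 2.55 and 2.45 in PC14CDDP, and 3.35, 3.18, 3.09 and 3.30 in A549. The 3 lines did not overlap. PC14CDDP was 3-fold below PC14 with a difference of -1.59 (SE 0.12, adjusted p = 2.13e-05), and A549 lay between them, -0.87 from PC14 (adjusted p = 0.000253) and 0.72 from PC14CDDP (adjusted p = 0.000704). EPAS1, which encodes the other widely studied alpha subunit, measured 6.03, 5.68, 5.40 and 5.43 in PC14, 3.98, 4.07, 3.81 and 3.72 in PC14CDDP, and 6.75, 6.46, 6.30 and 6.52 in A549. The 3 lines again did not overlap, but A549 was highest. PC14CDDP differed from PC14 by -1.74 (SE 0.11, adjusted p = 7.19e-06), A549 from PC14 by 0.87 (SE 0.11, adjusted p = 0.000125) and A549 from PC14CDDP by 2.61 (SE 0.11, adjusted p = 1.93e-07). These are mRNA levels, and the activity of both subunits is controlled mainly by the stability of the protein, which was not measured.

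**Figure D2:**
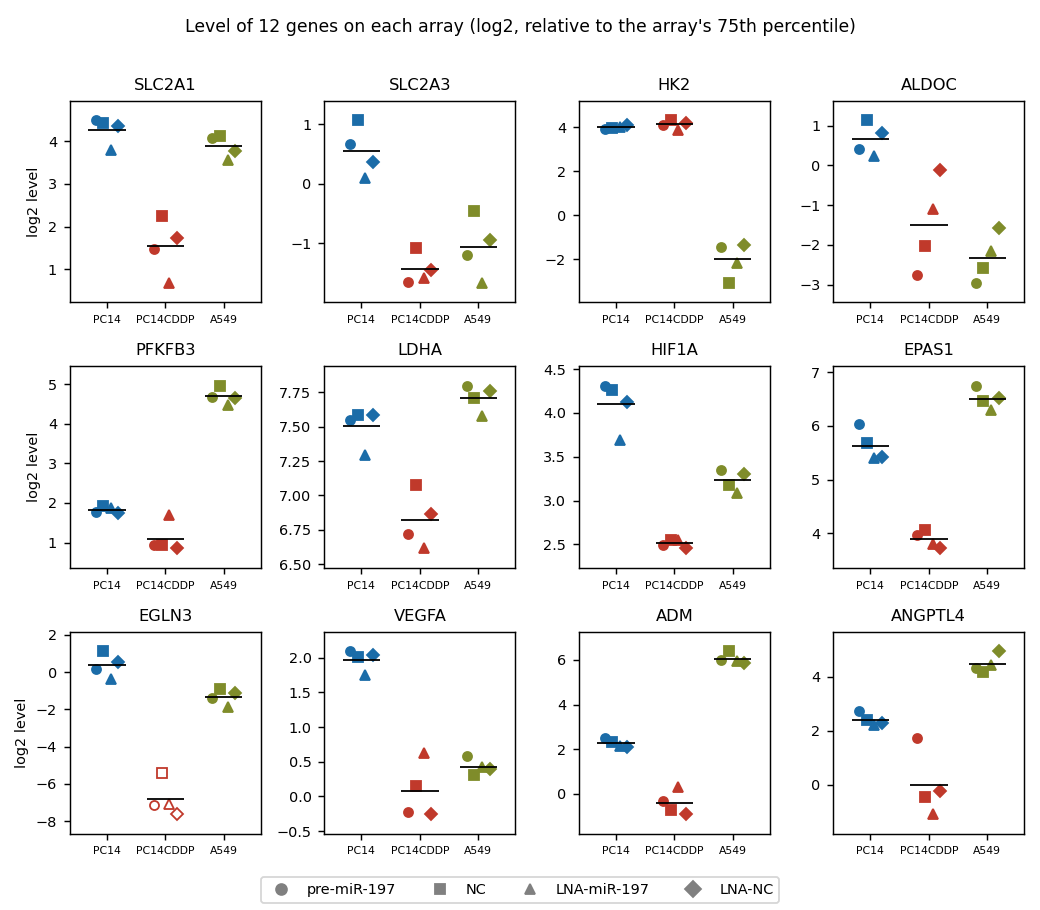
Level of 12 of the genes on each array (log2 level) by cell line, with a marker for each transfection, a bar for the mean of 4 arrays and open markers for a probe that stayed at background throughout a line. By mean, PC14CDDP is below PC14 for every gene shown but HK2.

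EGLN3, an oxygen-dependent hydroxylase that marks the HIF alpha subunits for degradation and is itself a well-known HIF target, had the largest difference between PC14CDDP and PC14 among the 38 genes. It measured 0.18, 1.11, -0.39 and 0.55 in PC14 and -1.36, -0.92, -1.89 and -1.12 in A549. On the 4 PC14CDDP arrays its probe stayed at background, so only a bound is given, computed from the lowest signal well above background on each array. PC14 was at least 49.5-fold higher than PC14CDDP (adjusted p = 9.42e-07) and A549 at least 15.4-fold higher (adjusted p = 8.91e-07). These bounds hold for the processed signal scaled to the 75th percentile. With normexp background correction, which adds an offset to dim signals, the EGLN3 differences were smaller than the bounds, -3.27 for PC14CDDP against PC14 (adjusted p = 4.73e-08) and 1.93 for A549 against PC14CDDP (adjusted p = 6.72e-07). A549 differed from PC14 by -1.69 (SE 0.29, adjusted p = 0.00102). The other EGLN3 probe stayed at background on all 12 arrays.

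EGLN1, the main hydroxylase of the HIF alpha subunits in most cells, differed by -0.15 (SE 0.16, adjusted p = 0.489) between PC14CDDP and PC14, and without the LNA-miR-197 arrays by -0.35 (adjusted p = 0.0182). It was higher in A549 than in PC14 by 0.50 (adjusted p = 0.0216), a call lost with arrays centered on their medians (0.24). The collagen prolyl hydroxylases P4HA1 and P4HA2, which stabilize collagen, were lower in PC14CDDP than in PC14 without overlap, with differences of -1.49 (adjusted p = 5.35e-05) and -0.84 (adjusted p = 0.00196). In A549 they differed from PC14 by -0.07 (adjusted p = 0.641) and -0.10 (adjusted p = 0.588). KDM3A, a histone demethylase, differed by 0.29 (SE 0.13, adjusted p = 0.0982) between PC14CDDP and PC14 and was lower in A549 than in PC14 (-0.93, adjusted p = 0.000268).

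Of the 7 other hypoxia response genes, 5 were lower in PC14CDDP than in PC14. VEGFA, the main growth factor for vessels, measured 2.09, 2.01, 1.75 and 2.05 in PC14, -0.22, 0.16, 0.62 and -0.25 in PC14CDDP, and 0.59, 0.31, 0.42 and 0.39 in A549. All PC14 arrays were above all others, and PC14CDDP and A549 overlapped. The difference between PC14CDDP and PC14 was -1.90 (SE 0.20, adjusted p = 0.000111), and that between A549 and PC14 was -1.55 (SE 0.20, adjusted p = 0.000161), whereas A549 and PC14CDDP differed by 0.35 (SE 0.20, adjusted p = 0.14).

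ADM, which encodes the vasodilator adrenomedullin, measured 2.49, 2.32, 2.13 and 2.10 in PC14, -0.32, -0.71, 0.30 and -0.90 in PC14CDDP, and 5.98, 6.38, 5.97 and 5.86 in A549. The 3 lines were separated by wide gaps. PC14CDDP was 6.35-fold below PC14 with a difference of -2.67 (SE 0.23, adjusted p = 3.99e-05), and A549 was 13.8-fold above PC14 (3.79, adjusted p = 1.98e-06) and 87.6-fold above PC14CDDP (6.45, adjusted p = 8.69e-08). ANGPTL4, a secreted inhibitor of lipoprotein lipase, had the same order. It measured 2.74, 2.39, 2.22 and 2.30 in PC14, 1.72, -0.45, -1.08 and -0.21 in PC14CDDP, and 4.32, 4.18, 4.42 and 4.93 in A549. PC14CDDP differed from PC14 by -2.42 (SE 0.43, adjusted p = 0.00185), and its pre-miR-197 array stood far above its other arrays. A549 differed from PC14 by 2.05 (SE 0.43, adjusted p = 0.00273) and from PC14CDDP by 4.47 (SE 0.43, adjusted p = 2.54e-05), and without the pre-miR-197 arrays the last value was 5.09.

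NDRG1, a stress-response gene induced by hypoxia and by iron loss, measured 6.79, 7.20, 6.68 and 7.04 in PC14, 4.81, 5.51, 5.25 and 5.05 in PC14CDDP, and 4.68, 4.28, 4.23 and 4.17 in A549. The 3 lines did not overlap, with PC14 highest. The difference between PC14CDDP and PC14 was -1.78 (SE 0.18, adjusted p = 9.42e-05), and A549 differed from PC14 by -2.59 (SE 0.18, adjusted p = 4.37e-06). ERO1L, an oxidase of the endoplasmic reticulum that forms disulfide bonds, was lower than in PC14 in PC14CDDP (-0.70, adjusted p = 0.00028) and in A549 (-0.75, adjusted p = 8.86e-05). BNIP3 and BNIP3L encode receptors for the removal of mitochondria. BNIP3 differed by -0.19 between PC14CDDP and PC14 (adjusted p = 0.388) and was lower in A549 than in PC14 (-0.72, adjusted p = 0.00524). The 3 BNIP3L probes disagreed. The brightest, used here, differed by 0.03 between PC14CDDP and PC14 and 0.36 between A549 and PC14, and the others by -1.41 and -1.26 and by -0.91 and -1.30.

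**Figure D3:**
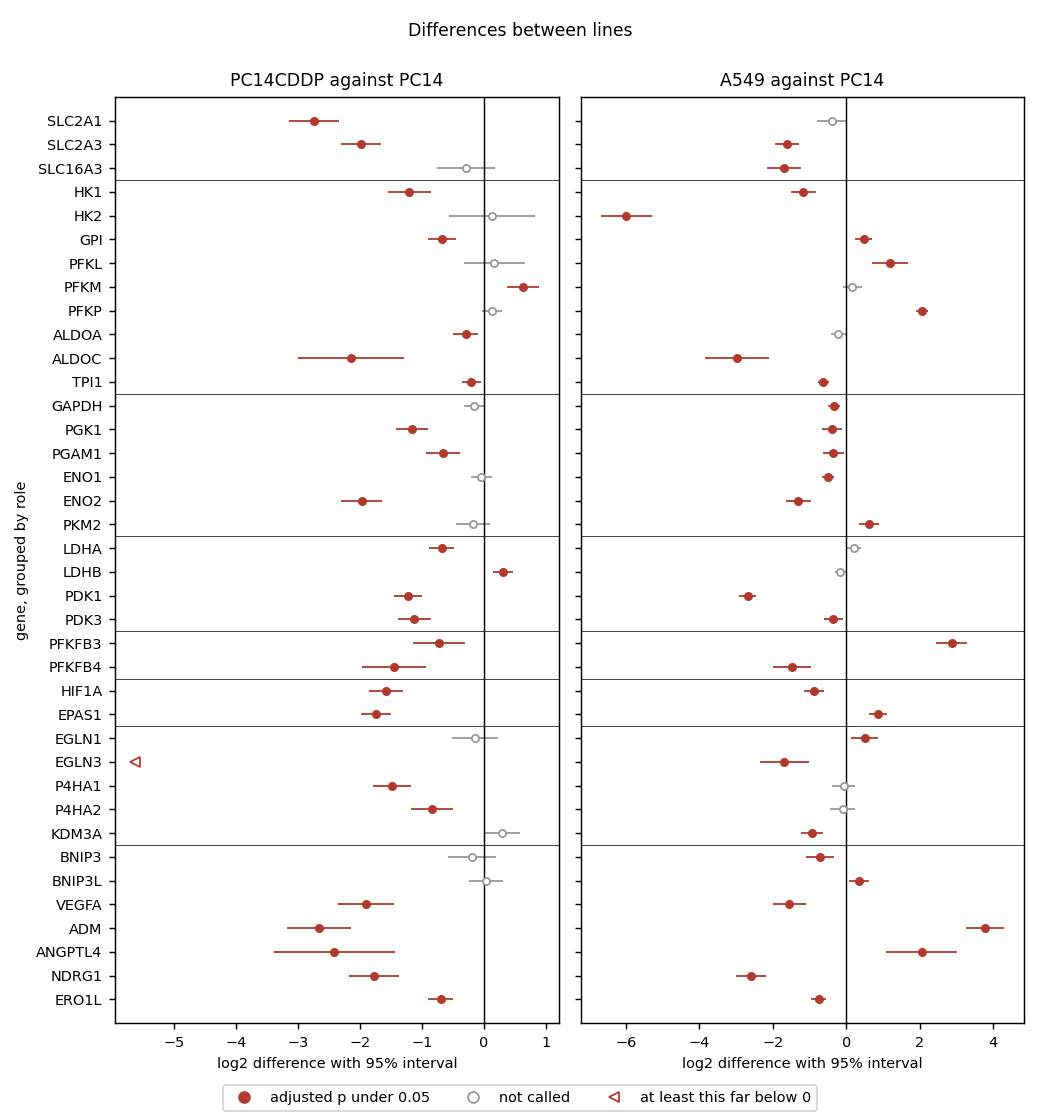
Log2 difference of each of the 38 genes between PC14CDDP and PC14 (left) and between A549 and PC14 (right), with the 95% interval of the limma fit, filled where called. The triangle for EGLN3 is its bound on the processed signal, 5.63 below 0 (-3.27 with normexp), and of the 27 genes called on the left only PFKM and LDHB lie above 0.

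Put together by line, PC14 was called above both other lines for 15 of the 38 genes (39.5%), against 11.8% of all genes, among them HIF1A, VEGFA, NDRG1, PDK1, ENO2 and SLC2A3, and below both for 0, against 10.6%. PC14CDDP was below both others for 16 (42.1%, against 12.6%), among them SLC2A1, LDHA, HIF1A, EPAS1, EGLN3 and P4HA1, and above both for 2, PFKM and LDHB (5.26%, against 16.3%). A549 was above both for 10 (26.3%, against 27.3%), namely GPI, PFKL, PFKP, PKM2, PFKFB3, EPAS1, EGLN1, BNIP3L, ADM and ANGPTL4, and below both for 8 (21.1%, against 24.0%), namely SLC16A3, HK2, TPI1, ENO1, PDK1, KDM3A, BNIP3 and NDRG1, so the A549 shares were near those of all genes. In all 3 comparisons of lines 15 genes were called (39.5%), against 27.0% of all genes. These counts describe the 3 lines and share arrays. Small differences lost their call when 1 transfection was left out. In A549 against PC14 these were EGLN1, PGK1, PGAM1, BNIP3L and PDK3 (adjusted p from 0.0592 for EGLN1 without LNA-NC to 0.13 for PDK3 without NC), and ALDOA gained one without pre-miR-197 (-0.27, adjusted p = 0.0355). In A549 against PC14CDDP they were PGAM1, SLC2A3, BNIP3 and BNIP3L (adjusted p from 0.0792 for BNIP3 without LNA-NC to 0.217 for PGAM1 without pre-miR-197), and VEGFA gained one without LNA-miR-197 (0.54, adjusted p = 0.0163). For 13 genes more than 1 probe passed the filter, and the sign of the 14 other probes matched the one used for 11 in PC14CDDP against PC14, 12 in A549 against PC14 and 11 in A549 against PC14CDDP. These 14 include a second LDHA probe that the files place on chromosome 9 and not at LDHA on chromosome 11, and it had the sign of the LDHA probe used in all 3. Among called genes, SLC2A1 had a probe of the other sign in PC14CDDP against PC14, BNIP3L in A549 against PC14, and BNIP3L, SLC2A1 and SLC2A3 in A549 against PC14CDDP.

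Genes of the same pathways outside the 38 were counted for context. In PC14CDDP against PC14, 25.7% of all genes tested were called higher and 22.8% lower, and these shares stand beside the counts of every list. Of 31 other glycolysis and glucose entry genes tested, 9 were higher and 11 lower in PC14CDDP than in PC14, with a median of -0.02. The largest called differences were those of GALM, which readies galactose and glucose for their pathways (-4.05, adjusted p = 5.58e-07), of the hexokinase-like HKDC1 (3.84, adjusted p = 7.11e-06), of the phosphoglucomutase PGM1 (-3.34, adjusted p = 2.05e-06) and of LDHD (-2.46, adjusted p = 0.000864). Of 52 other hypoxia response genes tested, 11 were higher and 24 lower, with a median of -0.28. ARNT2, a partner of the HIF alpha subunits, was at least 40.3-fold lower and IGFBP3 at least 4.90-fold lower in PC14CDDP, while STC1 was at least 7.96-fold higher and LOX at least 4.58-fold higher, with adjusted p = 7.71e-06, 5.53e-06, 5.36e-06 and 8.28e-05. In these 4 cases the probe stayed at background throughout the lower line.

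Of 27 genes of pyruvate oxidation and the TCA cycle, 8 were higher and 9 lower in PC14CDDP than in PC14, with a median of -0.14 and with PC (-1.48) and MPC1 (-1.13) among the lower. Of 11 tested genes of the pentose phosphate pathway and gluconeogenesis, 1 was higher and 6 lower, with a median of -0.27 and the largest difference in PCK2 (-1.89, adjusted p = 3.94e-05). In A549 against PC14 the same 4 lists gave 15 higher and 8 lower, 21 and 22, 5 and 13, and 7 and 2, with medians of 0.34, -0.15, -0.17 and 0.55. Of all genes, 36.1% were called higher and 32.1% lower there. The pentose phosphate genes TKT (1.57) and PGD (1.51) were higher in A549, and the pyruvate carrier MPC1 (-3.15) and the phosphatase PDP1 (-2.73) were lower. Against PC14CDDP, A549 gave 19 higher and 7 lower, 20 and 18, 6 and 11, and 7 and 2, with medians of 0.53, 0.13, -0.12 and 1.05. Of all genes, 36.2% were called higher and 34.0% lower in that comparison.

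On each array 55.8% to 63.1% of probes exceeded background clearly, the 75th percentile of signal was 407 to 479, and 0 spots were saturated. Of 5 epithelial markers, 5 were well above background on all arrays of A549 and 3 on all arrays of PC14 and of PC14CDDP. EPCAM and CDH1 were at background on all PC14CDDP arrays. Their summed level, in units of the 75th percentile and in the order A549, PC14 and PC14CDDP used below, was 450 to 618, 231 to 330 and 239 to 341. KRT18 was the largest term of each sum. In PC14CDDP against PC14, 3 of the 5 epithelial markers were called lower, with a median of -2.11, among them KRT19 (-2.11, adjusted p = 0.000559) beside EPCAM and CDH1. In PC14 itself EPCAM was well above background on 3 of 4 arrays and CDH1 on 2 of 4. The bounds are therefore small, with PC14 at least 1.47-fold higher for EPCAM and at least 1.21-fold higher for CDH1. Of 4 lung lineage markers 2, 3 and 3 were well above background on all 4 arrays of a line. Their sums were 0.299 to 0.489, 0.258 to 0.321 and 0.255 to 0.326. Of 4 leukocyte markers 3 were well above background on all 4 arrays in each line, with sums of 2.67 to 3.13, 1.04 to 1.21 and 0.263 to 0.783. Of 4 endothelial markers 2, 3 and 2 were in A549, PC14 and PC14CDDP, with sums of 0.250 to 0.344, 0.615 to 0.967 and 0.220 to 0.312, and of 4 fibroblast markers 1 was in each, with sums of 0.391 to 1.64, 0.0910 to 0.273 and 0.0777 to 0.149. PECAM1 differed between PC14 and PC14CDDP by at least 21.9-fold, and KDR, COL1A2, PDGFRB and the surfactant gene SFTPB stayed at background on every array. The part of these markers in the differences between lines was not tested.

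The comparison of pre-miR-197 with NC asks whether added miR-197 moved these genes. None was called by limma (0 of 38), while 0.209% of all genes were called in either direction. At an unadjusted p under 0.05 there were 5 of 38, beside 3947 of all 24857 genes. The methods' t-test called 0 of 38 and 0 of all genes. The median was -0.12, beside 0.02 for all genes, and 24 of 38 genes lay below 0. Without PC14CDDP the median was 0.00 and 18 of 38 lay below 0. Among genes measured in all lines, the largest differences of 1 sign in every line were those of ANGPTL4, ALDOC and PFKFB4. ANGPTL4 differed by 0.14 in A549, 0.35 in PC14 and 2.16 in PC14CDDP, with a mean of 0.89 (SE 0.49, adjusted p = 0.428), and without PC14CDDP the mean was 0.25. ALDOC differed by -0.38 in A549, -0.72 in PC14 and -0.72 in PC14CDDP, with a mean of -0.61 (SE 0.43, adjusted p = 0.549). For PFKFB4 the values were -0.53 in A549, -0.34 in PC14 and -0.85 in PC14CDDP, with a mean of -0.57 (SE 0.26, adjusted p = 0.333). EGLN3 was at background in PC14CDDP after both transfections. It differed by -0.45 in A549 and -0.93 in PC14, and without PC14CDDP its mean was -0.69 (adjusted p = 0.45).

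For the HIF subunits and their best-known targets the mean differences after pre-miR-197 were 0.05 for HIF1A (SE 0.14), 0.18 for EPAS1 (SE 0.12), -0.25 for SLC2A1 (SE 0.20), 0.45 for HK2 (SE 0.35), -0.10 for LDHA (SE 0.10) and -0.01 for VEGFA (SE 0.23). Their adjusted p lay between 0.517 (EPAS1) and 0.993 (VEGFA). Several of these means rested on 1 line. HK2 differed by 1.64 in A549, -0.07 in PC14 and -0.21 in PC14CDDP, and by -0.14 without A549. SLC2A1 differed by -0.05 in A549, 0.06 in PC14 and -0.77 in PC14CDDP, and by 0.0043 without PC14CDDP. LDHA gave 0.02 and VEGFA 0.18 without PC14CDDP, and HIF1A gave -0.01 without A549. PFKP differed by 0.21 in A549, 0.31 in PC14 and 0.40 in PC14CDDP, with a mean of 0.31 (SE 0.08, adjusted p = 0.142).

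After LNA-miR-197, compared with LNA-NC, 2 genes rose (EGLN1 and ERO1L) and 2 fell (PFKP and PKM2), while 4.10% of all genes were called higher and 3.57% lower. At an unadjusted p under 0.05 there were 11 of 38, beside 6725 of all 24857 genes. The median was -0.18, beside 0.00 for all genes, and 30 of 38 genes lay below 0. With arrays centered on their medians, 2 were called higher and 0 lower. All 15 glycolysis genes of both steps lay below 0, with a median of -0.23, under quantile normalization (-0.26), array medians (-0.18) and normexp (-0.21) as well, and 14 of 15 did without PC14 or with the mean of the probes of a gene. Only 2 of the 15 were called.

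PFKP fell by 0.42 on the log2 scale (SE 0.08, adjusted p = 0.0282), and by line the differences were -0.39 in A549, -0.41 in PC14 and -0.45 in PC14CDDP. It measured 6.48, 4.46 and 4.54 after LNA-miR-197 in A549, PC14 and PC14CDDP and 6.88, 4.87 and 4.99 after LNA-NC. PKM2, the last enzyme of glycolysis, fell by 0.63 (SE 0.14, adjusted p = 0.0359), and by line the differences were -0.42 in A549, -0.39 in PC14 and -1.09 in PC14CDDP. It measured 6.34, 5.68 and 5.20 after LNA-miR-197 and 6.76, 6.08 and 6.28 after LNA-NC. Both were lower in each line, and the size for PKM2 was largest in PC14CDDP.

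EGLN1 rose by 0.75 (SE 0.18, adjusted p = 0.0484), and by line the differences were 0.56 in A549, 0.42 in PC14 and 1.27 in PC14CDDP. It measured 3.48, 2.95 and 3.42 after LNA-miR-197 and 2.92, 2.53 and 2.16 after LNA-NC in A549, PC14 and PC14CDDP, so that the 2 groups did not overlap. ERO1L rose by 0.52 (SE 0.10, adjusted p = 0.0278), and by line the differences were 0.59 in A549, 0.36 in PC14 and 0.61 in PC14CDDP. It measured 3.14, 3.80 and 3.29 after LNA-miR-197 and 2.55, 3.45 and 2.68 after LNA-NC. Within slide 2, without A549, the differences were -0.43 for PFKP, -0.74 for PKM2, 0.84 for EGLN1 and 0.48 for ERO1L. None of these 4 calls held when any 1 line was left out, nor without the cell line as a block. Without A549, PC14 and PC14CDDP 0 of 38 were called, and 0, 2 and 0 of all 24857 genes. Without the block 3 of all genes were called, so the losses do not single out these 4 genes.

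The other key genes were not called after LNA-miR-197. SLC2A1 differed by -0.21 in A549, -0.57 in PC14 and -1.05 in PC14CDDP, with a mean of -0.61 (SE 0.20, adjusted p = 0.0972), HK2 by -0.39 (SE 0.35, adjusted p = 0.518) and LDHA by -0.24 (SE 0.10, adjusted p = 0.172). HIF1A differed by -0.18 (SE 0.14, adjusted p = 0.442), EPAS1 by -0.05 (SE 0.12, adjusted p = 0.817) and VEGFA by 0.20 (SE 0.23, adjusted p = 0.616). The VEGFA difference was -0.30 in PC14 and 0.88 in PC14CDDP, and its mean without PC14CDDP was -0.13. Without A549 the EPAS1 mean was 0.03. PFKFB4 (-0.91, adjusted p = 0.0701) and KDM3A (0.50, adjusted p = 0.0763) missed the threshold with 1 sign in every line. In the other lists 1 of 31 glycolysis genes fell (LDHC, -0.98), 3 of 52 hypoxia genes rose, among them MAFF (1.58), and 3 fell, among them BHLHE41 (-1.82). None of 27 TCA cycle genes was called, and 1 of 11 pentose phosphate genes rose (RPE, 0.62).

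**Figure D4:**
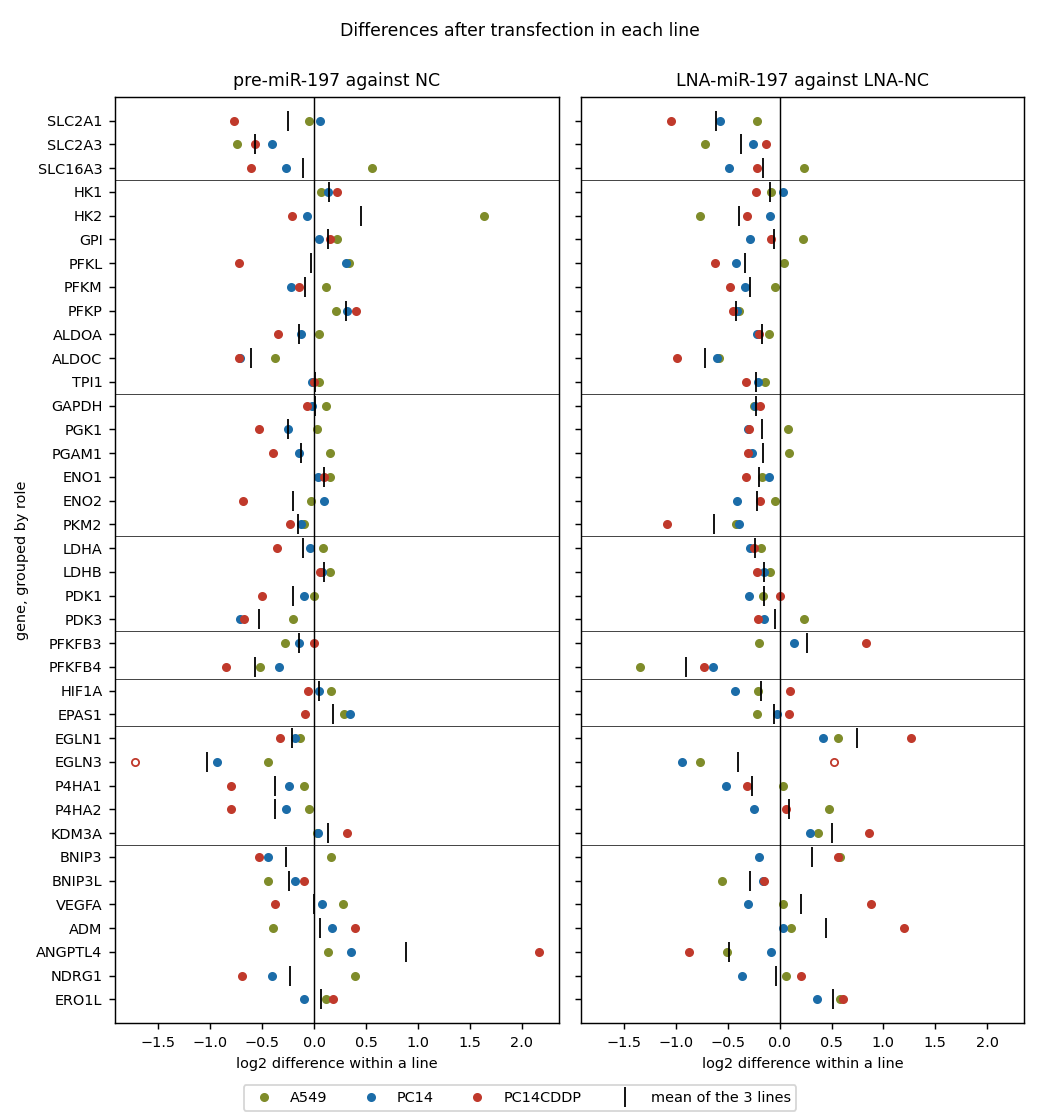
Log2 difference of each of the 38 genes after pre-miR-197 against NC (left) and after LNA-miR-197 against LNA-NC (right), with a point for each cell line, a bar for the mean of 3 lines and open points where EGLN3 was below background. No gene was called on the left, and on the right PFKP and PKM2 lie below 0 and EGLN1 and ERO1L above 0 in all 3 lines.

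The comparison of LNA-NC with NC shows how the control transfections differ from each other. Since no array held an untransfected culture, this comparison gives no background level for the others. It called 0 of 38 genes by limma, while 0.708% of all genes were called in either direction. At an unadjusted p under 0.05 there were 4 of 38, beside 3498 of all 24857 genes. The methods' t-test called 0 of 38 and 0 of all genes. The median was -0.11, beside -0.05 for all genes, and 28 of 38 genes lay below 0. This comparison shares its arrays with both others. EGLN3 differed by -0.21 in A549 and -0.56 in PC14, with no direction measured in PC14CDDP, and without that line its mean was -0.385 (adjusted p = 0.588). SLC2A3 differed by -0.49 in A549, -0.71 in PC14 and -0.37 in PC14CDDP, with a mean of -0.52 (SE 0.16, adjusted p = 0.197). For PDK3 the values were -0.42 in A549, -0.46 in PC14 and -0.48 in PC14CDDP, with a mean of -0.45 (SE 0.13, adjusted p = 0.174). SLC2A3 and PDK3 were lower after LNA-NC in every line, EGLN3 in both lines that measured it, and none passed the test. HIF1A differed by -0.04, EPAS1 by -0.18, SLC2A1 by -0.31, HK2 by 0.56, LDHA by -0.06 and VEGFA by -0.10, with adjusted p between 0.534 (HK2) and 0.928 (HIF1A). Without A549 the HK2 value was -0.01. The other lists had 0 genes called by limma in this comparison and in pre-miR-197 against NC.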

How the data were processed

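RNA (100 ng a culture) from 12 transfected cultures was hybridized to 12 single-color arrays. Per the labels, the authors scanned them and ran Agilent Feature Extraction 10.7.3.1, and they deposited the scanner intensity of every spot, with a processed signal that is background-subtracted and not scaled between arrays. Their value table equals that intensity on all 62976 spots of each array. The methods read here state no normalization for these arrays and name Student's test in general. 0 columns belonged to other samples.

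Control spots and outlier spots were left out, spots of a probe were averaged, and log2 levels were taken relative to the 75th percentile of each array. Probes missing on an array (106 of 50599) were left out. A probe entered when well above background on at least 3 of 12 arrays (33714 probes), and the probe of highest mean stood for its gene. Names came from RefSeq accessions for 28174 probes (55.7%) and otherwise from the files. The fit, over all 12 arrays with transfection and cell line as terms, used limma 3.58.1 (R 4.3.3). Deviations from the transfection means correlated with r from 0.848 to 0.949 within lines and from -0.754 to 0.116 between lines. This shows that the lines differ, so the line was a term, and not that cultures were handled as pairs. On simulated data for PC14CDDP against PC14, with 200 of 24857 genes changed by a log2 change of 2, 187 were recovered (93.5%) with 11 false calls. For pre-miR-197 against NC 172 were recovered (86%) with 14 false calls. The measured differences of the 38 genes after pre-miR-197 ran from -1.03 to 0.89, and recovery at such sizes was not simulated.

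The genes and lists were chosen with earlier results of these data known. Values by array are given for at most 10 called genes of largest difference per comparison, for the 3 largest differences of 1 sign in every line where fewer than 3 were called (EGLN3, which this rule also names in pre-miR-197 and LNA-NC against NC, is given where it was measured), and for HIF1A, EPAS1, SLC2A1, HK2, LDHA and VEGFA throughout. From other lists at most 4 called genes of largest difference are named, and some are not reported here. PFKP and PFKFB4 in the transfections, and the other genes beyond this rule, were named after their values were seen or because they are on the list. Alternatives were quantile normalization, array medians, normexp, the value table, 2 other filters, the mean of the probes of a gene, each replicate left out, no block, the slide as block, only the arrays compared, a trend and robust prior, and the methods' t-test (unpaired, Benjamini-Hochberg adjusted). Promoter windows came from the RefSeq table of GRCh38.p14, and probe positions from the files (hg19). Tables and plots were made in Python 3.11.15 (pandas 2.3.3, numpy 2.4.6, matplotlib 3.10.9).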

Additional observations from a re-analysis of the deposited data

Results flagged for a closer look

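In 7 of 114 groups of 4 arrays (38 genes in 3 lines) 1 array stood apart from the other 3 by Dixon's test at 95%, where chance flags about 1 in 20 groups. All 7 were LNA-miR-197 arrays. The test compares arrays of different transfections within a line, so these values belong to the transfection comparison as well. TPI1 in PC14CDDP measured 7.31, with the others from 7.64 to 7.69. GAPDH in PC14 measured 8.27, with the others from 8.51 to 8.54. LDHA in PC14 measured 7.29, with the others from 7.55 to 7.59. PDK1 in A549 measured -0.67, with the others from -0.51 to -0.50. These 4 were low. PFKFB3 in PC14CDDP measured 1.68, with the others from 0.85 to 0.93. KDM3A measured -0.10 in A549, with the others from -0.47 to -0.44, and 0.80 in PC14, with the others from 0.46 to 0.51. These 3 were high. No gene moved by 1.5-fold or more in opposite directions in 2 lines after a transfection (0 of 114 comparisons).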

How the results depend on the processing

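The counts between lines kept within 1.5 times of their values in every alternative. PC14CDDP against PC14 gave 23 to 28 genes (23 to 26 with a transfection left out), A549 against PC14 gave 26 to 35 (26 to 31), and A549 against PC14CDDP gave 25 to 32 (27 to 30). Called in every alternative were 23 of 27, 24 of 31 and 24 of 31 genes. BNIP3L reversed with the mean of its probes, to -0.88 in PC14CDDP against PC14 (adjusted p = 0.000248) and -0.62 in A549 against PC14 (adjusted p = 0.000963), since its probes disagree. Centering on array medians moved the median of all genes from 0.09 to -0.17 in A549 against PC14 and from 0.05 to -0.24 in A549 against PC14CDDP, and the share of called genes that were higher from 52.95% to 38.11% and from 51.55% to 37.46%.

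After pre-miR-197, 1 gene was called with normexp (PDK3) and 1 with a trend and robust prior (PFKP). These settings called 576 and 514 of all 24857 genes. After LNA-miR-197 the count of 4 became 2 with array medians, both higher, with 68.86% of all called genes higher (53.44% in the main fit). It became 9 with a trend and robust prior, which called 3220 of all genes against 1905 in the main fit. It was 0 with no filter, only the arrays compared, the methods' t-test or no replicate block (no pairing by line). It was also 0 with the slide in place of the line or any 1 line left out (range 0 to 0). Over all genes, no filter called 529 of 36274. The other settings that gave 0 called 0 to 7 of 24857, so they leave few calls to any genes. The cause of these changes was not tested. LNA-NC against NC gave 0 in every alternative, while 0 to 299 of all genes were called. With the filter on all arrays EGLN3 was not tested. The 3 lines limit the precision of every transfection value, and dim probes give bounds only.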
